A study of Mus musculus with 3 samples.

Results

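The tissue inhibitors of metalloproteinases of the mouse are the products of 4 genes, Timp1, Timp2, Timp3 and Timp4, and their transcripts were followed in single cells of the knee synovium and infrapatellar fat pad of wild-type mice. The genes were taken by symbol, and all 4 members were found among the 32285 genes of the deposited tables. The study covers 3 libraries: a control library from mice aged 2 months without surgery named in the labels, a library made 1 week after DMM, and a library made 2 months after DMM. DMM, destabilization of the medial meniscus, is a surgical model of knee osteoarthritis, and it was done at 2 months of age, so the mice of the last library were also older than the controls. For every library, tissue of 5 to 10 mice was combined and digested with 0.25% trypsin for 30 min and then with 300 U/mL collagenase I for 30 min, and live cells of the second digest were sorted. The sources used here do not give the sex, the time of day of collection or whether any mouse had a sham operation.

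TIMPs are small secreted proteins that insert their amino-terminal ridge into the catalytic cleft of a metalloproteinase and block it. They differ in reach: Timp1 is soluble and blocks most secreted matrix metalloproteinases (MMPs) but only weakly the membrane-bound Mmp14, Timp2 also forms the complex with Mmp14 through which pro-Mmp2 is activated, Timp3 binds the extracellular matrix and alone among the family blocks Adam17 and the aggrecanases Adamts4 and Adamts5 well, and Timp4 is known for a restricted expression, with a high level in heart. In joints the balance of these inhibitors and their proteases is a long-standing subject of osteoarthritis research, because MMPs cut collagen and ADAMTS enzymes cut aggrecan.

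Cells in which 500 or more genes were detected and mitochondrial UMIs (unique molecular identifiers, each standing for 1 captured transcript) made no more than 10% numbered 8099 in the control library, 12316 at 1 week and 9782 at 2 months, with median depths of 10871, 12920 and 13543 UMIs. Fibroblasts were cells with a Pdgfra UMI and none of Ptprc or Cdh5, and numbered 3781, 4748 and 5317 in that order of libraries. Endothelium (a Cdh5 UMI, no Ptprc) numbered 1270, 1784 and 1157 cells, mural cells (a Notch3 UMI, no Pdgfra, Ptprc or Cdh5) 694, 711 and 423, and macrophages (3 or more C1qa UMIs) 1101, 1969 and 894. Endothelium and macrophages stood apart by their own markers: the summed level of 6 endothelial markers was 2669 to 3179 CPM (UMI counts scaled to a common class total) in endothelium against 6.11 to 119 in the other classes, and that of 7 macrophage markers was 11702 to 17000 CPM in macrophages against 50.4 to 593 elsewhere. The 6 fibroblast markers were not confined in this way: their summed level was 27636 to 53905 CPM in fibroblasts, 6389 to 15981 in endothelium, 2738 to 14424 in mural cells and 3789 to 8821 in macrophages. In mural cells of the 1-week library the fibroblast markers (14424 CPM) exceeded the 7 mural markers (10930 CPM), and 31.1% of these cells had no Myh11 UMI, with 8323 CPM of Col1a1. Pairs of libraries shared 21 to 30 cell barcodes, at most 0.321% of the smaller library.

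Levels are UMIs of a gene summed over the cells of a class and divided by all UMIs of that class, in CPM, and ranges in brackets are 95% intervals for counting error alone (exact Poisson for levels, conditional binomial for ratios). With 1 library in each group there is no replicate check: no difference below was tested, no p-value can be given, and the spread between mice is not known. A ratio of at least 2-fold is used as a size mark, and the share of all genes past it in the same comparison is given as the background. Fewer transcripts per cell and fewer expressing cells are separate quantities here, and the share of cells with a UMI is given for the main results. To show how much of a level could be carried over from fibroblasts, a fibroblast RNA equivalent was computed for each other class: the Timp level it would have if all its Col1a1, Col1a2, Col3a1 and Dcn UMIs came from fibroblast RNA.

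Timp1 (ENSMUSG00000001131) lies on chromosome X at 20870166-20874735 of GRCm38, plus strand, inside Syn1 on the opposite strand. Timp2 (ENSMUSG00000017466) spans chromosome 11 at 118301069-118355740 on the minus strand and contains Cep295nl on its own strand. Timp3 (ENSMUSG00000020044) spans chromosome 10 at 86300372-86349506 on the plus strand inside Syn3, and Timp4 (ENSMUSG00000030317) spans chromosome 6 at 115241892-115252205 on the minus strand inside Syn2, in both cases opposite in strand to the host. Exons of Cep295nl, Syn2 and Syn3 fall within the span of the Timp gene, and no exon of Syn1 does, and Gm17482, which also overlaps Timp4, had 0 UMIs in all classes and libraries. Syn1, Syn2 and Syn3 are the synapsin genes, so 3 of the 4 inhibitors sit within members of 1 other family. The most abundant host gene was Syn3 in mural cells, at 12.3, 11.9 and 54.8 CPM in control, 1-week and 2-month cells, against 783 CPM or less for Timp3 in the control and 1-week libraries and 1182 CPM at 2 months. Counting by strand would separate reads of Syn1, Syn2 and Syn3 from those of the Timp genes within them, but not reads of Cep295nl from those of Timp2. The sources used here do not state whether counting used strand, and the assignment of these reads was not checked.

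Timp1 and Timp4 differed from control in opposite directions after surgery, so the 250 bases before the start of each are shown, from RefSeq (GRCm38.p6), 5′ to 3′ on the strand of the gene. The Timp1 window is chrX:20869916-20870165 on the plus strand, the Timp4 window is chr6:115252206-115252455 on the minus strand, and capitals mark an SP1 box, GGGCGG on either strand.
Timp1: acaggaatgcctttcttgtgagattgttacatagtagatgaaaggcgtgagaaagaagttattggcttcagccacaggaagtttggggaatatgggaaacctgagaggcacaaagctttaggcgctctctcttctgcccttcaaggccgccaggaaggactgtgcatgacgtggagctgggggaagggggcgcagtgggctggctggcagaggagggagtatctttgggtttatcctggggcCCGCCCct
Timp4: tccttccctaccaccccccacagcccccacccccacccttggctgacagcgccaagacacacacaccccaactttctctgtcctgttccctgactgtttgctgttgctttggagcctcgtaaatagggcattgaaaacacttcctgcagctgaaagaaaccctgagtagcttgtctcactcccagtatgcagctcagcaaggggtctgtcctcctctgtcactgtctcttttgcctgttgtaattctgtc
The SP1 box was present 1 time in the windows of Timp1, Timp2 and Timp3 and 0 times in that of Timp4, against 32.7% of 32851 windows of the same length that hold it. The AP-1 motif TGANTCA and the STAT motif TTCNNNGAA, each searched on both strands, had 0 matches in all 4 windows, and 6.75% and 7.02% of all windows hold them. The 3 motifs do not overlap in their letters. The GC content was 54.4% for Timp1, 68.0% for Timp2, 65.6% for Timp3 and 53.6% for Timp4, with a median of 52.4% over all windows. A match describes letters only, and no match says nothing about a factor.

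Across the 4 classes, the 4 genes made 16 ratios in each comparison between libraries. At 1 week against control 4 ratios were at least 2-fold higher, all of Timp1, and 9 were at least 2-fold lower, all 8 of Timp3 and Timp4 and that of Timp2 in macrophages. At 2 months against control 4 were at least 2-fold higher, again of Timp1, and 4 at least 2-fold lower, those of Timp4. At 2 months against 1 week 8 were at least 2-fold higher, those of Timp3 and Timp4, and 1 was at least 2-fold lower, that of Timp1 in mural cells. The background at 1 week against control was 11.6% of genes higher and 10.6% lower by this mark in fibroblasts, 7.70% and 8.38% in endothelium, 13.1% and 11.7% in mural cells, and 8.66% and 9.96% in macrophages. At 2 months against control it was 5.44% and 4.15% in fibroblasts, 3.72% and 2.82% in endothelium, 4.96% and 3.39% in mural cells, and 3.96% and 3.93% in macrophages. At 2 months against 1 week it was 8.86% and 8.31%, 6.93% and 5.21%, 8.19% and 7.79%, and 7.30% and 6.13% in the same order of classes. The comparisons share libraries, so a gene low in the 1-week library is high in the third comparison by construction.

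**Figure D1:**
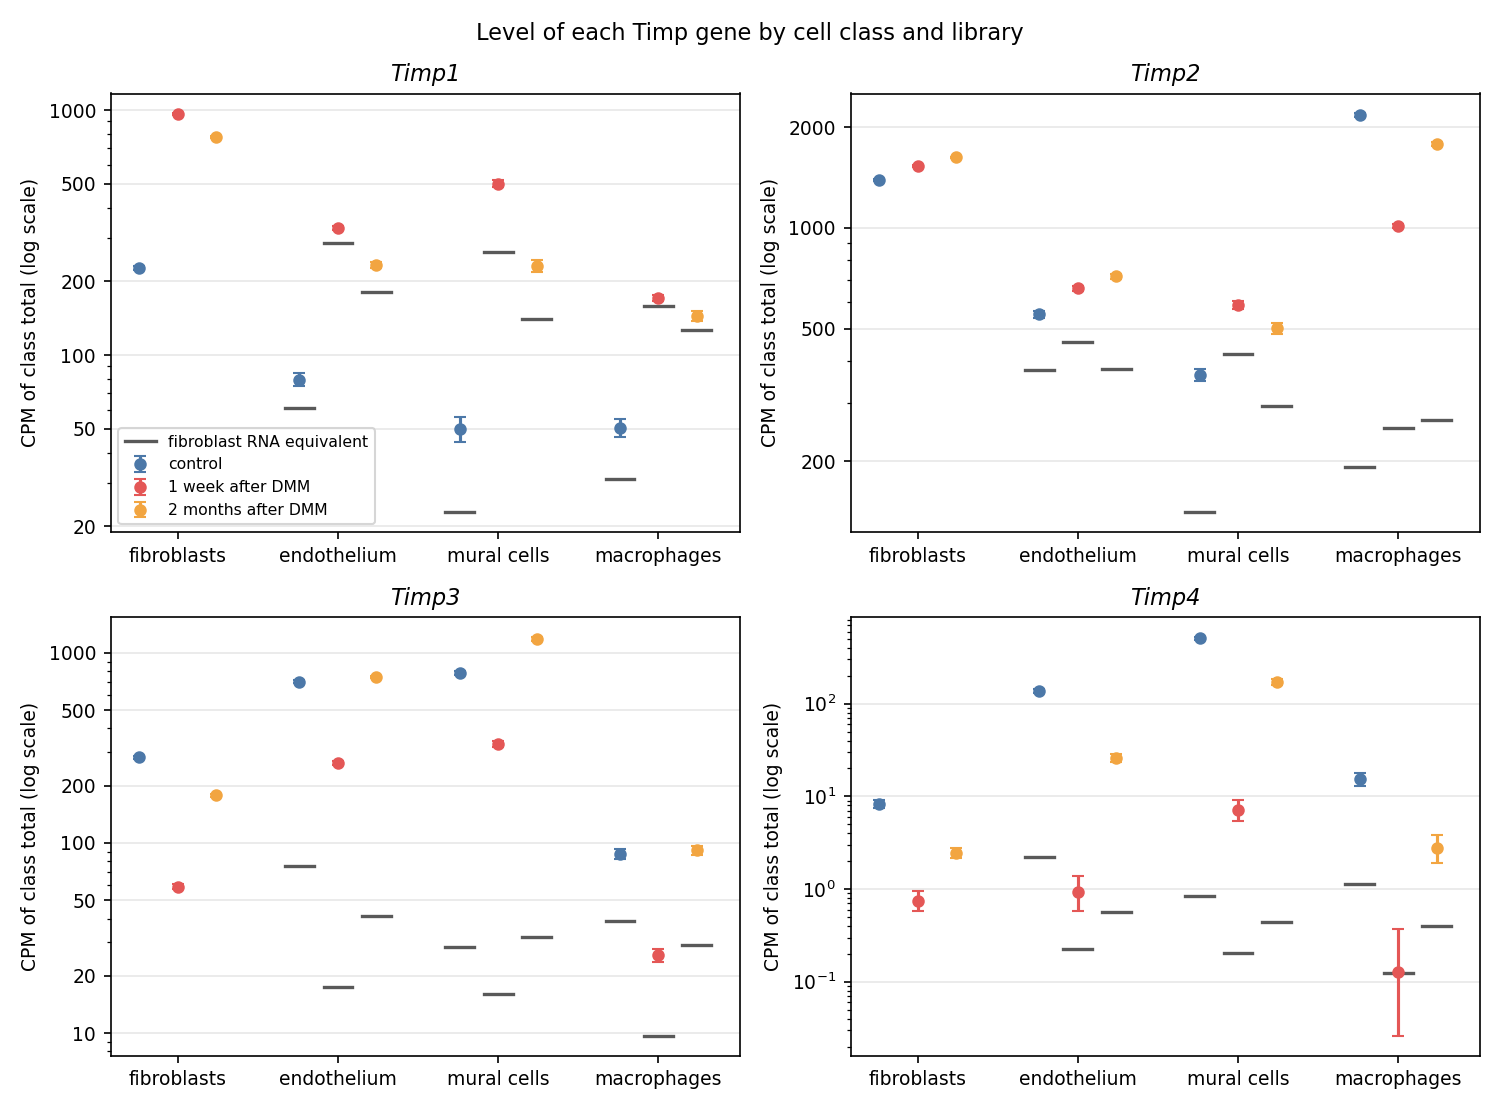
Level of each Timp gene (CPM of the class total, log scale) in 4 gated cell classes and 3 libraries. Points are the summed level, bars the 95% Poisson interval for counting error, and grey marks the fibroblast RNA equivalent of the other 3 classes. Timp1 was highest at 1 week in each class, Timp3 and Timp4 were lowest at 1 week in each class, and Timp2 was lowest at 1 week in macrophages at 1012 CPM.

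**Figure D2:**
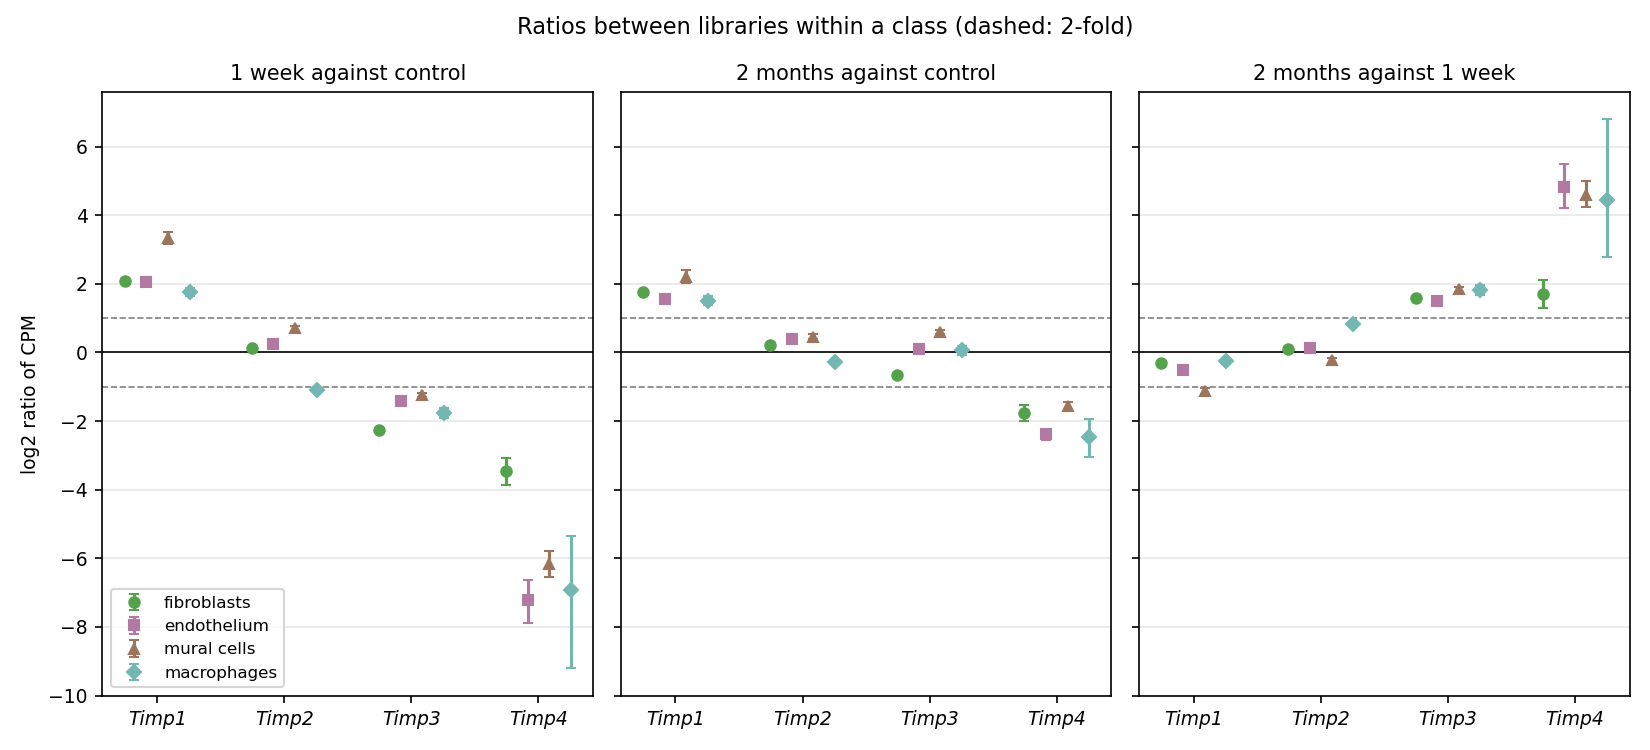
log2 ratio of CPM between libraries for each Timp gene within each class, 1 panel for each comparison. Points are ratios, bars 95% intervals for counting error, and dashed lines mark 2-fold. The left panel separates Timp1 above, Timp2 within 2-fold except in macrophages, and Timp3 and Timp4 below.

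Timp1, the inducible and soluble inhibitor, was higher in fibroblasts of both libraries made after surgery. Its fibroblast level was 226.5 CPM (222.5 to 230.6) in control, 963 CPM (956 to 969.5) at 1 week and 775 CPM (770 to 781) at 2 months. The level was thus 4.25-fold (4.17 to 4.33) the control at 1 week and 3.42-fold (3.36 to 3.49) at 2 months, and the 2-month level was 1.24-fold below that of 1 week. The share of fibroblasts with a Timp1 UMI was 60.9%, 96.4% and 78.9%, and 29.7%, 71.9% and 49.9% once each cell was thinned to 3000 UMIs.

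The spread over single fibroblasts differed between the operated libraries. The median fibroblast had 0.789 Timp1 UMIs per 10000 in control, 4.799 at 1 week and 2.08 at 2 months. The 99th percentile was 16.7, 52.5 and 48.1 in the same order, so the upper end at 2 months was near that of 1 week while the median was less than it. The 10% of fibroblasts with the most Timp1 held 63.3% of its UMIs in control, 48.5% at 1 week and 64.2% at 2 months, and for Timp2 this share was 26.1%, 25.6% and 26.0%.

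**Figure D3:**
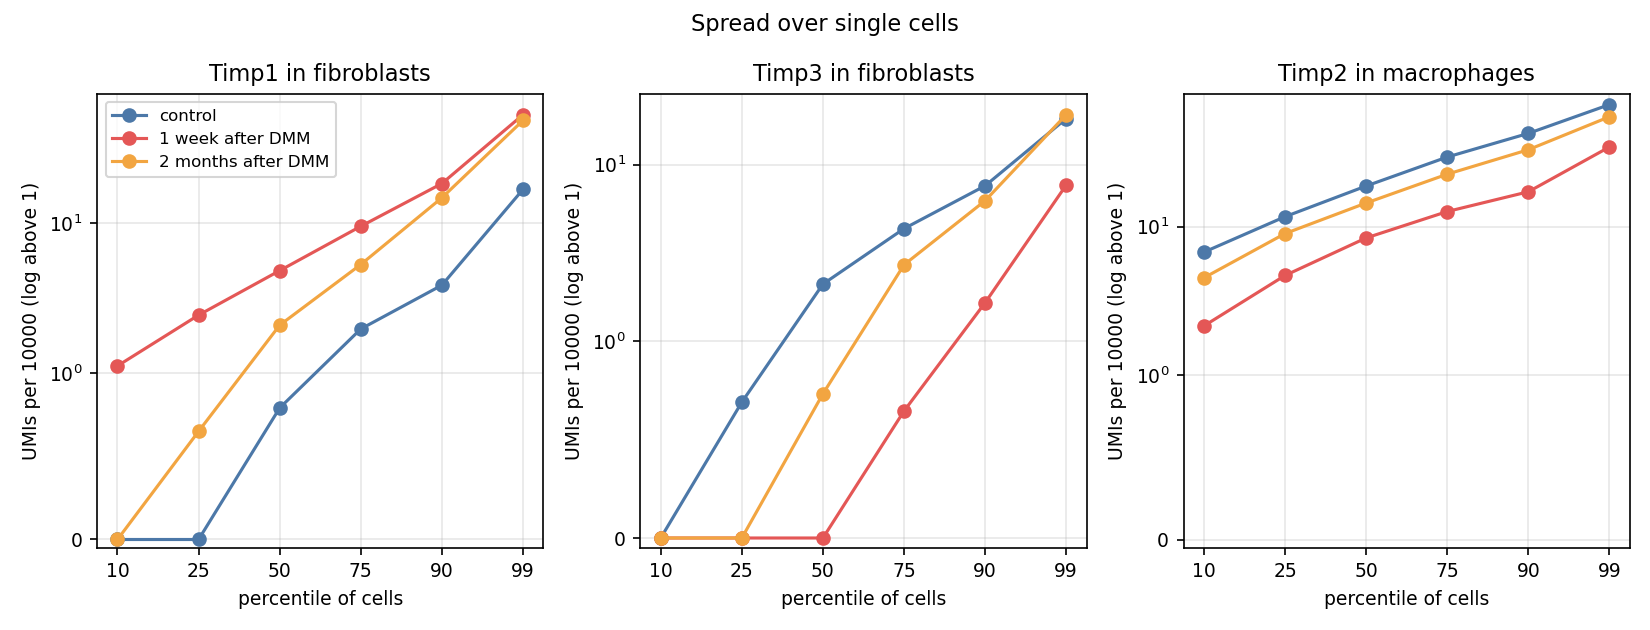
UMIs per 10000 at 6 percentiles of cells (linear up to 1, log above) for Timp1 and Timp3 in fibroblasts and Timp2 in macrophages, 1 line for each library. The Timp1 lines of the operated libraries meet at the 99th percentile, at 52.5 and 48.1, and part at the median, at 4.799 and 2.08.

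Fibroblast subsets gated on single markers shared the direction of Timp1. These gates overlap, so a cell can be counted in several. In control 59.3% of fibroblasts were in the Myoc or Penk gate, 50.65% in that of Gdf10, Inmt or Fmo2 and 49.85% in that of Clic5 or Tspan15. In each of the 7 subsets with at least 50 cells in both libraries Timp1 was at least 2-fold higher at 1 week than in control, from 2.91-fold in Mki67 or Top2a cells, the cycling cells, to 8.67-fold in cells with 10 or more UMIs of Acta2, smooth muscle actin. That last gate held unlike cells in the libraries: Scrublet called 52.8% of it in control and 4.57% at 1 week, and its Myh11 level was 1260 and 54.4 CPM. The next ratio was 5.05-fold, in Pi16 or Dpp4 cells. At 2 months the 7 ratios to control lay between 2.57-fold, in Myoc or Penk cells, and 6.71-fold, in the Acta2-high cells. None of 9 subsets was higher at 2 months than at 1 week, with ratios of 0.574 to 0.963.

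Lining fibroblasts, which coat the joint cavity and secrete lubricin (Prg4), were gated on Clic5 or Tspan15 and held 49.9% of fibroblasts in control, 12.2% at 1 week and 39.2% at 2 months. Their Prg4 level was 69520, 48665 and 78726 CPM, against 3439, 1830 and 3299 CPM in the other fibroblasts. Timp1 in the lining was 277 CPM in control, 1245 at 1 week and 1117 at 2 months, against 160 CPM, 917 and 387 in the rest. The lining level was 1.73-fold that of the rest in control, 1.36-fold at 1 week and 2.89-fold (2.84 to 2.94) at 2 months, so the contrast between lining and other fibroblasts was widest in the 2-month library. Cells with Pi16 or Dpp4, markers of adventitial fibroblasts, had 155 CPM, 784 and 593, and those with Myoc or Penk had 155 CPM, 693 and 398. Neither gate bars the lining markers.

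Fibroblasts with an UMI of Acan, the core protein of aggrecan, numbered 2 in control, 2465 at 1 week and 389 at 2 months, and had 928 CPM of Timp1 at 1 week and 820.5 at 2 months. Cycling fibroblasts had the highest Timp1 of the subsets with at least 50 cells in each library, at 492 CPM, 1430 and 1377. With every cell given equal weight their control level was 247.5 CPM, against 225 in lining cells and 227 in Thbs4 or Cilp cells. Their control share with a Timp1 UMI after thinning was 27.1%, under the 37.0% and 36.7% of those subsets. The cycling fibroblasts numbered 100, 840 and 203 cells.

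**Figure D4:**
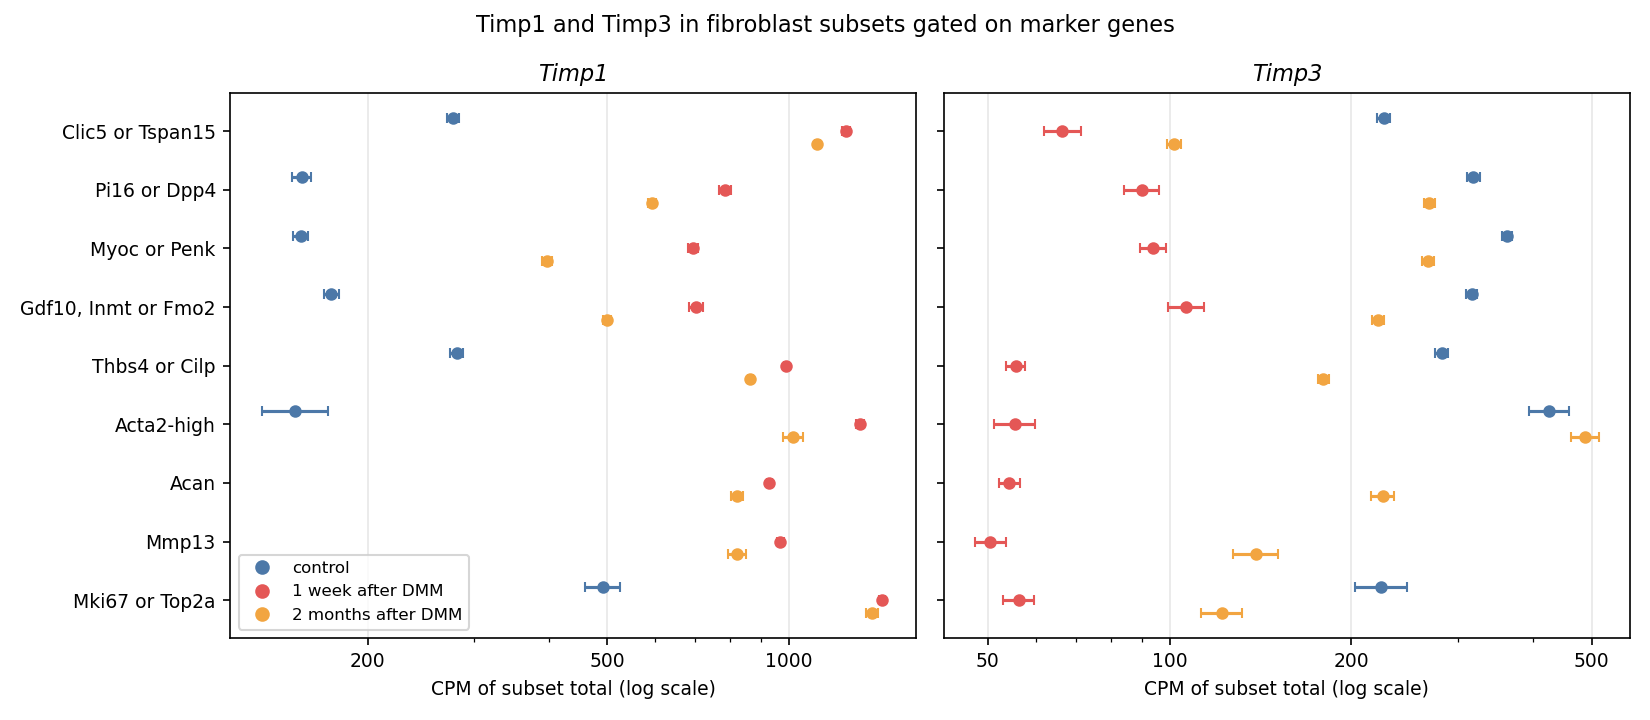
Timp1 (left) and Timp3 (right) in 9 overlapping fibroblast subsets gated on the markers named at the left, as CPM of the subset total on a log axis. Points are levels and bars 95% Poisson intervals, and subsets under 50 cells in a library have no point. At 2 months the Clic5 or Tspan15 subset had 1117 CPM of Timp1 and 102 CPM of Timp3.

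In mural cells, the smooth muscle cells and pericytes of vessel walls, Timp1 was 49.8 CPM (44.2 to 56.0) in control, 502 CPM (487 to 517) at 1 week and 230 CPM (218 to 244) at 2 months. The ratio to control was 10.1-fold (8.93 to 11.4) at 1 week and 4.63-fold (4.06 to 5.28) at 2 months. The fibroblast RNA equivalent was 45.9%, 52.5% and 60.7% of these levels, and a single cell held 656 of the 4402 Timp1 UMIs of the 1-week mural cells and 70 of the 283 control UMIs. Mural cells in which the 4 collagen and decorin genes made at most 1% of UMIs had 34.8 CPM in control and 257 CPM at 1 week, a ratio of 7.395, and the 2-month ratio there was 2.83. Over 12 alternatives the ratio ran from 2.59 with mural cells gated on Rgs5 to 19.1 with 2 or more Notch3 UMIs at 1 week, and from 2.01 to 8.62 with the same gates at 2 months. Cells with 2 or more UMIs of Myh11, smooth muscle myosin, had 14.9 CPM, 246 and 121, which is 16.4-fold control at 1 week and 8.12-fold at 2 months, while cells with no Myh11 UMI had 387 CPM in control and 1011 at 1 week, a ratio of 2.61. The drop from 1 week to 2 months, 2.18-fold in all mural cells, was 1.20-fold under a stricter cell filter (1000 or more genes, mitochondrial UMIs no more than 5%) and 1.29-fold in cells gated on Rgs5.

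In endothelium Timp1 was 79.4 CPM in control, 330 CPM at 1 week and 233 CPM at 2 months, which is 4.16-fold (3.90 to 4.44) and 2.93-fold (2.74 to 3.14) the control. The fibroblast RNA equivalent was 76.6%, 87.1% and 77.5% of these levels. Endothelial cells without a Pdgfra UMI and with fewer than 3 C1qa UMIs had 29.1 CPM in control and 50.1 at 2 months, a ratio of 1.72 that is under the 2-fold mark, and a ratio of 4.67 at 1 week. In endothelial cells low in collagen and decorin the 1-week ratio was 2.46, from 43.3 and 107 CPM, and the 2-month ratio was 2.02. Cells with Aplnr or Prnd had 31.4 CPM in control, 188 at 1 week and 128 at 2 months, and arterial cells with Gja5 had 23.8 CPM, 230 and 227. Thinning each cell to 3000 UMIs also took the 2-month ratio under 2-fold, to 1.97.

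In macrophages Timp1 was 50.6 CPM in control, 171 CPM at 1 week and 144 CPM at 2 months, with ratios to control of 3.39 (3.10 to 3.70) and 2.85 (2.60 to 3.14). The fibroblast RNA equivalent was 61.8%, 92.5% and 87.9% of the level. In macrophages low in collagen and decorin the level was 33.3 CPM in control and 37.9 CPM at 1 week, a ratio of 1.14, while the 2-month ratio was 2.20. Without the doublets called by Scrublet, which marked 10.2% to 10.4% of the macrophages, the 2-month ratio was 1.48, and with every cell given equal weight it was 1.92. The ratio of 2 months to 1 week, 0.842, was 1.94 in the cells low in collagen and decorin.

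Timp3, the matrix-bound inhibitor of Adam17 and the aggrecanases, was lower at 1 week in each of the 4 classes. In fibroblasts it was 282 CPM (277 to 286) in control, 58.8 CPM (57.2 to 60.5) at 1 week and 178 CPM (175 to 180.5) at 2 months. The 1-week level was 4.79-fold below control and the 2-month level 1.58-fold below it, with ratios of 0.209 (0.202 to 0.215) and 0.631 (0.617 to 0.645). The share of fibroblasts with a Timp3 UMI was 82.1%, 35.3% and 62.7%, and the median fibroblast at 1 week had 0 Timp3 UMIs, against 2.11 per 10000 in control. At 1 week the share with a Timp3 UMI was 2.14% in monocytes (median 6314 UMIs) and 5.22% in T cells (median 3738 UMIs), against 35.3% in fibroblasts at a median of 16492 UMIs.

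The 1-week deficit of Timp3 was found in each of the overlapping fibroblast subsets compared, and the return at 2 months was uneven. All 7 subsets were at least 2-fold lower at 1 week, with ratios of 0.130 in Acta2-high cells, whose makeup differed as given for Timp1, and then 0.197 in Thbs4 or Cilp cells to 0.337 in cells with Gdf10, Inmt or Fmo2. At 2 months the ratio to control was lowest, 0.450, in the lining cells, where Timp3 was 226 CPM in control, 66.5 at 1 week and 102 at 2 months. Pi16 or Dpp4 cells had 318 CPM, 89.9 and 269, and Myoc or Penk cells had 361 CPM, 93.9 and 268, so their 2-month levels were nearer to control. The fibroblasts other than lining had 355 CPM, 57.6 and 264 in the same order. The lining thus had the lower Timp3 and the higher Timp1 of the 2 compartments in control and at 2 months.

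In endothelium Timp3 was 704 CPM in control, 262 CPM at 1 week and 746.5 CPM at 2 months. The 1-week level was 2.69-fold below control and the 2-month level 1.06-fold (1.03 to 1.09) the control. In mural cells it was 783 CPM, 331 CPM and 1182 CPM, which is 2.37-fold below control at 1 week and 1.51-fold (1.45 to 1.57) above it at 2 months. The fibroblast RNA equivalent made at most 10.8% of these endothelial and mural levels, so this equivalent accounted for a small part of them. Arterial endothelium, gated on Gja5, had 765.5 CPM of Timp3 in control, 278 at 1 week and 1192 at 2 months, from 117, 73 and 75 cells, and Selp or Ackr1 cells, markers of venules, had 651 CPM, 298 and 500.

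Macrophages had less Timp3: 87.4 CPM in control, 25.7 CPM at 1 week and 91.3 CPM at 2 months. The 2-month ratio to control was 1.04 (0.958 to 1.14), and 1 cell held 456 of the 1095 UMIs of that library. Without the top cell of each library the ratio was 0.643, and in macrophages without Pdgfra and Cdh5 UMIs it was 1.96, so no order of the control and 2-month levels is read. Of the macrophage levels, 44.5%, 37.7% and 31.8% were matched by the fibroblast RNA equivalent. That equivalent leaves out RNA of mural cells and endothelium, where Timp3 was higher. Macrophages held 657.5, 293 and 302 CPM of the summed mural markers and 67.1, 119 and 48.9 CPM of the endothelial ones. The part of such RNA in macrophage Timp3 was not tested.

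Timp4, the family member with a high level in heart, had its highest level in control mural cells and was lowest at 1 week. In mural cells it was 506 CPM (488 to 525) in control, 7.07 CPM (5.42 to 9.06) at 1 week and 171 CPM (160 to 183) at 2 months, from 2875, 62 and 903 UMIs. The 1-week level was 71.6-fold below control, with a ratio of 0.0140 (0.0107 to 0.0180), and the 2-month level was 2.96-fold below it. The share of mural cells with a Timp4 UMI was 64.8%, 4.08% and 30.5%, and 54.2%, 1.99% and 19.8% after thinning. Among macrophages, which are of another lineage, the share was 4.72%, 0.152% and 0.671% at median depths of 9617, 10117 and 11750 UMIs, against 7956, 11025 and 11252 UMIs in mural cells.

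The makeup of the mural gate moved in the same libraries. Cells with 2 or more Myh11 UMIs made 89.2% of it in control, 56.3% at 1 week and 88.9% at 2 months, and the summed level of 7 mural markers was 20571, 10930 and 17086 CPM. Within the Myh11 cells, 619, 400 and 376 in number, Timp4 was 564 CPM in control, 11.3 at 1 week and 190 at 2 months, a 1-week ratio of 0.0200 (0.0151 to 0.0260). The 1-week level within the Myh11 cells was thus 50.04-fold below control, against 71.6-fold in the whole gate. Those cells also had 18321 CPM of Acta2 in control, 6427 at 1 week and 11908 at 2 months, and 558, 6533 and 3003 CPM of Rgs5, a pericyte gene. The part of this shift in the Timp4 difference was not tested. With mural cells gated on Rgs5 in place of Notch3 the 1-week log2 ratio was -4.11, and with the stricter filter, which kept 370 of the 694 control mural cells, it was -8.25, against -6.16 by the gate above. At 2 months the stricter filter kept 162 of 423 mural cells and put Timp4 10.7-fold below control, where the other 11 alternatives gave 2.70- to 3.10-fold.

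In endothelium Timp4 was 136 CPM in control, 0.922 CPM at 1 week and 26.0 CPM at 2 months, from 1779, 23 and 470 UMIs. The 1-week level was 148-fold below control, with a ratio of 0.00676 (0.00427 to 0.0102), and the 2-month level was 5.24-fold below control and 28.2-fold (18.6 to 45.0) above 1 week. With equal weight for every cell the 1-week level was 76.4-fold below control, with endothelium gated on Pecam1 it was 94.4-fold below, and in cells with a Y-linked UMI and no Xist UMI 212-fold. Cells with Aplnr or Prnd had 206 CPM in control, 0.515 at 1 week and 28.8 at 2 months, and Selp or Ackr1 cells had 64.1 CPM, 0.153 and 4.59. The Selp or Ackr1 cells thus had the lower Timp4 of these gates in control and at 2 months. The endothelial gate also held mural RNA: its Myh11 level was 112, 14.7 and 43.8 CPM, against 2793, 515.7 and 2543 CPM in mural cells. The part of mural RNA in endothelial Timp4 was not tested.

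In fibroblasts Timp4 was 8.30 CPM in control, 0.749 CPM at 1 week and 2.44 CPM at 2 months, from 448, 64 and 238 UMIs. Fibroblasts with a Notch3 UMI, 328, 486 and 324 cells, held 61.2%, 68.7% and 79.8% of these UMIs. In the Acta2-high fibroblasts Timp4 was 173 CPM, 3.87 and 70.4, against 3.21 CPM, 0.270 and 0.432 in the others. Scrublet called doublets among 52.8%, 4.57% and 33.7% of the Acta2-high fibroblasts, against 1.71%, 0.630% and 1.76% of the rest, and their Myh11 level was 1260, 54.4 and 1062 CPM against 14.7, 1.86 and 2.91. The part of mural RNA in fibroblast Timp4 was not tested. The level was 11.1-fold below control at 1 week and 3.40-fold at 2 months, with 7.95- to 17.4-fold and 3.24- to 6.83-fold over the alternatives.

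Macrophages held 175 Timp4 UMIs in control, 3 at 1 week and 33 at 2 months, which is 15.3 CPM, 0.127 and 2.75. The 1-week ratio to control was 0.00831 (0.00170 to 0.0247), and 0.00309 to 0.0160 over the alternatives. At 2 months 1 cell held 27 of the 33 UMIs, and without the doublets called by Scrublet the level was 0.104 CPM, so the ratio of 2 months to 1 week, 21.7 (6.81 to 111) from these sums, became 0.979. The macrophage gate also held mural RNA: its Myh11 level was 85.8, 13.9 and 27.85 CPM, against 2793, 515.7 and 2543 CPM in mural cells. The part of mural RNA in macrophage Timp4 was not tested, so no expression of Timp4 by macrophages is read.

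Timp2, the inhibitor that also takes part in Mmp2 activation, varied least between libraries in fibroblasts. Its fibroblast level was 1396 CPM in control, 1531 at 1 week and 1629 at 2 months, ratios to control of 1.10 and 1.17. In endothelium it was 552 CPM, 659 and 717, and in mural cells 363.5 CPM, 589.5 and 501. The mural ratio at 1 week was 1.62 (1.54 to 1.71), and it was 0.836 with mural cells gated on Rgs5. The endothelial ratio at 1 week was 1.19, and 0.999 in cells low in collagen and decorin. Fibroblast RNA equivalents were 68.0%, 69.4% and 52.9% of the endothelial levels and 38.8%, 71.1% and 58.7% of the mural levels.

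Macrophages differed from the stromal classes in the direction of Timp2. Their level was 2175 CPM (2149 to 2203) in control, 1012 CPM (1000 to 1025) at 1 week and 1782 CPM (1758 to 1806) at 2 months. The 1-week level was 2.15-fold below control, with a ratio of 0.465 (0.457 to 0.474), and the 2-month level was 0.819 of control and 1.76-fold (1.73 to 1.79) that of 1 week. The median macrophage had 18.8 Timp2 UMIs per 10000 in control, 8.39 at 1 week and 14.4 at 2 months, so the difference covered the middle of the class. The fibroblast RNA equivalent was 8.85%, 24.9% and 14.9% of these levels, and in macrophages low in collagen and decorin the 1-week ratio was 0.416. Scaling by TMM, which moved the macrophage ratios of all genes by 0.110 on the log2 scale, put the ratio at 0.502, just inside the 2-fold mark.

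The kinds of macrophage differed between the libraries as well. Cells with Vsig4, a complement receptor of resident macrophages, numbered 591 in control, 48 at 1 week and 236 at 2 months, and had 2585 CPM of Timp2 in control and 2337 CPM at 2 months. Cells with the mannose receptor Mrc1 and no Vsig4 UMI, 453, 1432 and 577 in number, had 1743 CPM in control, 1022 at 1 week and 1572 at 2 months. Timp2 was therefore lower at 1 week within the Mrc1 gate too, at 0.586 of its control by these levels. At 1 week 267 macrophages had 3 or more UMIs of both Spp1 and Gpnmb, and their Timp2 was 1259 CPM against 957 CPM in the other macrophages.

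The makeup of the Timp pool, as the share of each gene in the summed UMIs of all 4, differed by class and library. This assay counts transcripts by their 3′ end, so the shares are of captured transcripts and are not scaled by gene length. In fibroblasts Timp2 made 73.0% of the pool in control, 60.0% at 1 week and 63.0% at 2 months, while Timp1 made 11.8%, 37.7% and 30.0%. In mural cells Timp4 made 29.7%, 0.494% and 8.21%, and Timp3 made 46.0%, 23.2% and 56.7%. In endothelium Timp3 made 47.8%, 20.9% and 43.3%, and in macrophages Timp2 made 93.4%, 83.7% and 88.2%. Thus the counted 1-week pool of the 2 vascular classes was mainly Timp1 and Timp2, and in control and at 2 months Timp3 was its most abundant member. At 1 week the fibroblast RNA equivalent was 87.1% of Timp1, 69.4% of Timp2 and 6.71% of Timp3 in endothelium. In mural cells it was 52.5%, 71.1% and 4.86% in the same order. The part of fibroblast RNA in this difference of makeup was not tested.

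The summed Timp level was set beside that of the MMP genes. In fibroblasts the sum of the 4 was 1913 CPM in control, 2554 at 1 week and 2585 at 2 months, and the sum of the MMP genes was 841 CPM, 3033 and 1620. That is 2.27 Timp UMIs for each Mmp UMI in control, 0.842 at 1 week and 1.596 at 2 months. The ratio was 4.13, 1.21 and 2.997 in endothelium, 8.41, 1.36 and 5.15 in mural cells, and 16.7, 1.56 and 4.51 in macrophages. It was lowest at 1 week and highest in control in all 4 classes. If their collagen and decorin UMIs came from fibroblast RNA, that RNA would also supply 87.3% of the 1-week MMP level in endothelium, 79.1% in mural cells and 64.2% in macrophages, and 63.4%, 41.9% and 83.1% in control. The order in these 3 classes is therefore read with that share, whose part in it was not tested. These are ratios of transcripts, and protein and activity were not measured.

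**Figure D5:**
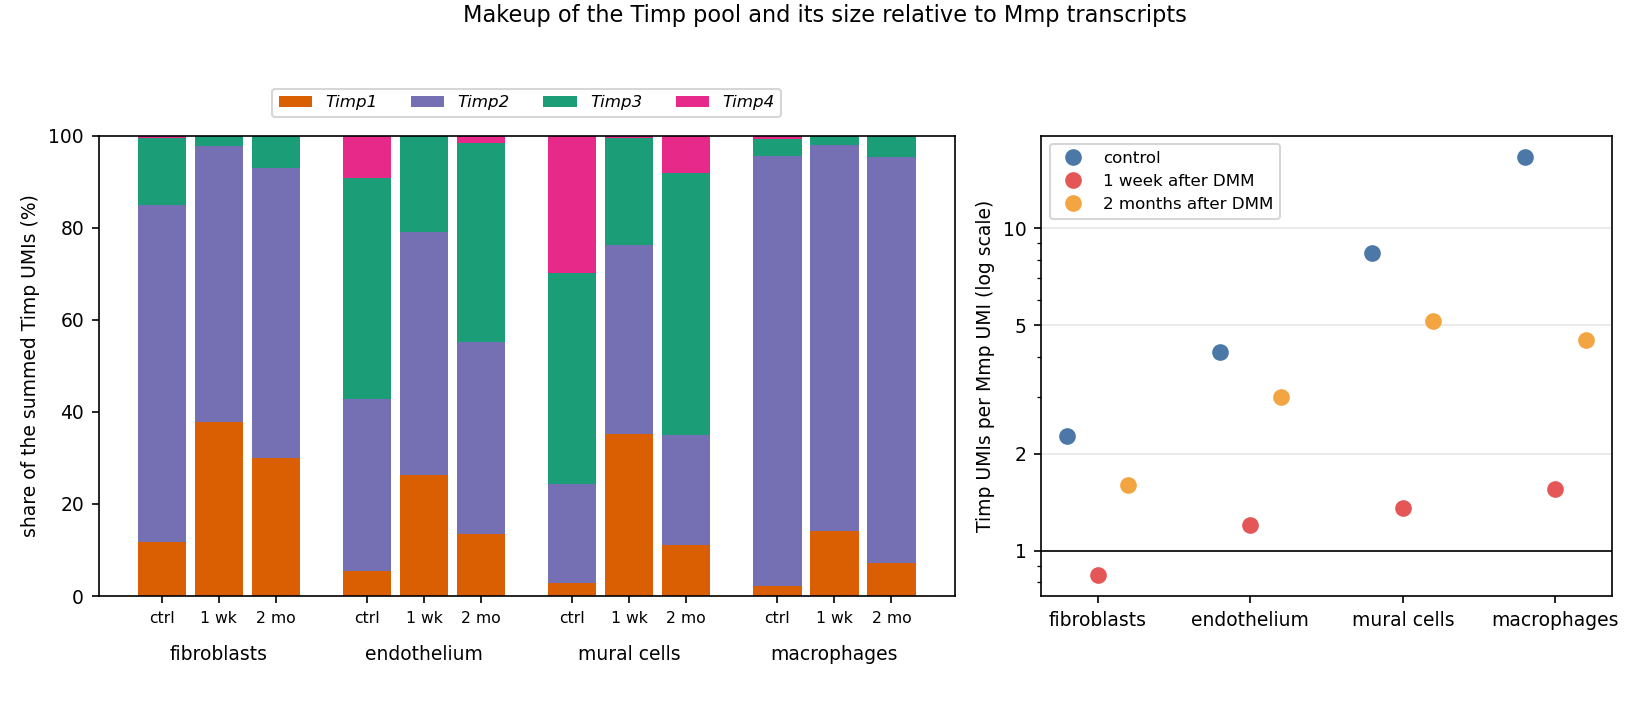
Left, share of each Timp gene in the summed Timp UMIs (%) by class and library. Right, Timp UMIs for each Mmp UMI (log scale), with a line at 1. The fibroblast value at 1 week, 0.842, is the only one under the line, and Timp4 makes 29.7% of the control mural bar.

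The cell classes contributed unequally to each gene. Fibroblasts held 69.2%, 70.4% and 79.5% of all Timp1 UMIs in the 3 libraries, against 56.8%, 48.9% and 62.8% of all UMIs. Mural cells held 51.6%, 30.0% and 50.4% of all Timp4 UMIs, against 5.97%, 5.03% and 3.39% of all UMIs. Timp3 was spread over fibroblasts (46.8%, 29.6% and 41.2%), endothelium (28.2%, 38.5% and 32.0%) and mural cells (13.7%, 17.1% and 14.8%). Macrophages held 20.8%, 11.4% and 9.89% of Timp2. Over all passing cells Timp4 was 58.6 CPM in control, 1.19 at 1 week and 11.5 at 2 months, and Timp1 was 186, 669 and 613 CPM.

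Outside the 4 classes, cells with 50 or more in a library were mainly found at 1 week. The 83 cartilage-type cells (10 or more Col2a1 UMIs), 49.4% of which were also in the fibroblast gate, had 937 CPM of Timp1, 1391 of Timp2, 165 of Timp3 and 0 of Timp4. The 115 T cells had 193 CPM of Timp1 and 307 of Timp2, the 96 B-lineage cells 53.3 and 90.4, and the 140 monocytes 76.1 and 127. Timp3 was 16.8 CPM in T cells and 2.85 CPM in monocytes, well under its stromal levels in that library. Osteoclast-type cells, 77 in number, had 705 CPM of Timp2 and 73.5 of Timp1. Neutrophils had 234.5 CPM of Timp1 at 1 week (276 cells) and 34.2 at 2 months (582 cells), and 538 and 284 CPM of Timp2. The fibroblast RNA equivalent for Timp1 was 70.5% and 95.3% of these neutrophil levels, 67.1% in T cells, 66.9% in B-lineage cells, 42.6% in monocytes and 111% in osteoclast-type cells, so no expression of Timp1 in the last is read.

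Among the proteases the family blocks, MMP genes were mostly higher after surgery. In fibroblasts 16 of the 22 MMP genes measured had at least 50 UMIs at 1 week and control together: 11 were at least 2-fold higher and 1 at least 2-fold lower, with a median log2 ratio of 1.32 against 0.02 over all genes tested. At 2 months 6 of 15 were at least 2-fold higher and 0 lower. Over all fibroblast genes the shares higher and lower were 11.6% and 10.6% at 1 week, and 5.44% and 4.15% at 2 months. The same shares apply to the other fibroblast lists below. Mmp13, the main collagenase of cartilage breakdown, was 0.741 CPM in control, 286 at 1 week and 36.9 at 2 months, from 40 UMIs in control. Mmp14, the membrane-bound activator of Mmp2, was 177 CPM, 910 and 256, and the gelatinase Mmp2 was 435 CPM, 1220 and 804. Mmp3, stromelysin, was 130.5 CPM, 326 and 377, so it differed from the other 3 in being highest at 2 months. Mmp9, a gelatinase of myeloid cells and osteoclasts, was at 2.69 CPM or less in each library.

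The aggrecanases that Timp3 blocks did not share 1 direction. Adamts5 was 280 CPM in control, 83.1 at 1 week and 242 at 2 months, 3.37-fold below control at 1 week, and Adamts4 was 18.9 CPM, 31.3 and 14.9. Adam17, the sheddase of tumour necrosis factor, was 52.1 CPM, 49.4 and 56.4. Of 16 ADAMTS genes in fibroblasts 7 were at least 2-fold higher and 2 lower at 1 week, and 7 higher and 1 lower at 2 months, among them Adamts16 at 5.83, 11.6 and 27.9 CPM. Of 8 ADAM genes 2 were higher and 1 lower at both times. Adam12, a sheddase that human TIMP3 also blocks, was 1.80 CPM in control, 80.4 at 1 week and 6.53 at 2 months, and Adam33 was 43.9 CPM, 14.5 and 18.9.

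Other classes showed the same side for MMP genes. In macrophages 11 of 14 were at least 2-fold higher at 1 week and 0 lower, and 7 of 11 higher at 2 months, against 8.66% and 3.96% of all genes higher. Mmp12, macrophage elastase, was 2.96 CPM in control macrophages and 55.2 at 1 week. In mural cells 9 of 11 were at least 2-fold higher at 1 week and 4 of 7 at 2 months, against 13.1% and 4.96% of all genes. In endothelium 6 of 12 were higher and 1 lower at 1 week, and 1 of 11 higher at 2 months. Over all endothelial genes the shares were 7.70% and 8.38% at 1 week and 3.72% higher at 2 months. The fibroblast RNA equivalent of the summed MMP level at 1 week and 2 months was 64.2% and 59.1% in macrophages. It was 79.1% and 72.2% in mural cells, and 87.3% and 65.6% in endothelium. Its part in these counts was not tested. Mmp13 in endothelium and mural cells, 54.1 and 82.8 CPM at 1 week, moved with fibroblast collagen in these gates, whose collagen and decorin level was 29.8% and 27.4% of that of fibroblasts, and the part of fibroblast RNA in it was not tested.

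Fibroblasts with and without a protease UMI differed in their inhibitors to an extent that varied with the protease and the library. At 2 months cells with an Mmp14 UMI had 824 CPM of Timp1 against 327 CPM in the others, and 157 CPM of Timp3 against 372 CPM. Cells with an Mmp14 UMI had a median of 17345 UMIs and the others 10206, so depth moved with this split. In control the Mmp14 split was smaller, at 233 against 191.5 CPM of Timp1 and 276 against 315 CPM of Timp3. Cells with an Mmp3 UMI had less Timp1, 514.5 CPM against 933 CPM at 2 months and 173 CPM against 247.5 CPM in control, at median depths of 15085 and 16891 UMIs in the first case. At 1 week that gap was smaller, 914 against 993 CPM. Cells with and without an Adamts4 UMI had 774.7 and 775.5 CPM of Timp1 at 2 months. At 1 week cells with an Mmp13 UMI had 969 CPM of Timp1 and the others 960.5 CPM, a ratio of 1.01 (0.994 to 1.02), and 50.5 CPM of Timp3 against 61.8 CPM.

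Of 6 other protease inhibitors or regulators measured at 50 UMIs or more in fibroblasts, 0 were at least 2-fold higher and 3 at least 2-fold lower at 1 week. Pcolce2, which enhances procollagen processing, was 778 CPM in control, 39.6 at 1 week and 288 at 2 months. Serpine2, protease nexin, was 564 CPM, 188 and 340, and Reck, a membrane-anchored MMP inhibitor, was 25.4 CPM, 12.3 and 20.4. Timp1 was therefore the exception in fibroblasts among these inhibitors and the 4 TIMPs in being at least 2-fold higher at 1 week. In mural cells Serpine2 had the other direction, 512 CPM in control and 1157 at 1 week.

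Among 6 binding partners in fibroblasts, 1 was at least 2-fold higher and 2 lower at 1 week, and 0 in either direction at 2 months. Cd63, the tetraspanin that binds TIMP1 in human cells, was 1010 CPM in control, 2034 at 1 week and 1293 at 2 months. Lrp1, the endocytic receptor that clears TIMP3 and several proteases, was 684 CPM, 405.5 and 773.5, and Efemp1, a matrix protein that binds TIMP3, was 98.5 CPM, 15.5 and 64.8. Lrp1 and Efemp1 were thus lowest in the library in which Timp3 was lowest.

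A list of 21 genes covered pathways known to induce Timp1 (interleukin-6 family ligands and receptors, transforming growth factor beta, Il1b and Tnf, AP-1 factors). In fibroblasts 3 were at least 2-fold higher and 6 lower at 1 week, and 1 and 1 at 2 months. Over all genes the shares were 11.6% and 10.6% at 1 week, and 5.44% and 4.15% at 2 months. Among the 6 lower genes, Socs3, a feedback target of the interleukin-6 family, was 332 CPM in control, 105 at 1 week and 196.5 at 2 months, and Il11ra1 was 573 CPM, 221 and 331. The median log2 ratio of the list was -0.28 at 1 week, with 8 genes higher and 13 lower than control. Whether these pathways act on Timp1 here was not tested. In macrophages 1 of 20 list genes was at least 2-fold higher and 8 lower at 1 week, against 8.66% and 9.96% of all genes. The median log2 ratio there was -0.70. The 1 higher gene was Il1b, at 36.7 CPM, 232 and 108. In mural cells 6 of 18 were at least 2-fold higher and 2 lower at 1 week, against 13.1% and 11.7% of all genes. Among the 6 was Osmr, the oncostatin M receptor, at 40.8 CPM in control and 101 at 1 week.

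The genes whose pattern was most like each Timp gene were found by the Pearson correlation of log2(CPM + 1) over the 12 units of 4 classes by 3 libraries, among 8854 genes. These units share libraries and carry RNA of one another, so the values are a description with no p. For Timp1 they were Arcn1 (0.978), Glis3 (0.969), Matn2 (0.967), Dclk1 (0.962) and Ibsp (0.960). For Timp2 they included Fuca1 (0.941), Emp3 (0.937), Mcub (0.934) and Galk2 (0.932). For Timp3 they were Zmynd11 (0.986), Ctdspl2 (0.981), Cdkn1b (0.972), Ktn1 (0.969) and Syne2 (0.969), and for Timp4 Rbm48 (0.963), Fxr2 (0.950), Pip4k2c (0.946), Rnpc3 (0.944) and Rbm42 (0.944). Within the family the values were 0.812 for Timp3 and Timp4, -0.732 for Timp2 and Timp3, and -0.601 for Timp1 and Timp4.

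Timp1 is X-linked, and the libraries differed in sex-linked transcripts. Xist, the RNA of the inactive X chromosome, had 3 UMIs in control fibroblasts, 7 at 1 week and 5274 at 2 months, while the Y-linked Ddx3y was at 78.01, 72.1 and 73.2 CPM. In the 2-month library 373 fibroblasts (7.02%) had an Xist UMI and no Y-linked UMI, with 739 CPM of Timp1 and 243 CPM of Timp3, and 3978 (74.8%) had a Y-linked UMI and no Xist UMI, with 799 and 169 CPM. Restricted to cells with a Y-linked UMI and no Xist UMI in every library, the fibroblast ratios of Timp1 to control were 4.14 at 1 week and 3.38 at 2 months, and that of Timp3 at 1 week was 0.220. The cells with Xist and no Y-linked UMI had less Timp1 in other classes at 2 months, 62.0 against 263.5 CPM in endothelium and 21.6 against 188 CPM in macrophages, from 75 such cells in each, against 831 and 542. Cells with neither kind of UMI were also low in that library, at 87.75 CPM in endothelium and 25.3 CPM in macrophages. In control, cells with neither had 35.6 and 21.6 CPM, against 91.05 and 59.95 CPM in cells with a Y-linked UMI only. No difference by sex is therefore read from this split.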

How the data were processed

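The deposited tables hold UMI counts for each gene and cell barcode of 3 droplet libraries (10x Genomics 3′ chemistry), whole numbers with no normalization. Per the file headers the authors wrote them with Cell Ranger 5.0.0 (control and 1 week) and 5.0.1 (2 months), whereas the submitters' processing notes name Cell Ranger 6.0.1 and mm10. The libraries held 96782789, 179561680 and 159333121 UMIs in 9003, 13986 and 10799 barcodes.

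Barcodes needed 500 or more genes and no more than 10% mitochondrial UMIs, and cells were gated on raw UMIs of single markers. Doublets were not removed, and removal of Scrublet calls (330, 528 and 435 cells) was an alternative. The fibroblast and mural gates bar markers of other classes, the endothelial gate bars only Ptprc, and the macrophage gate bars none. UMIs were summed by class and library and divided by the class total. Genes with at least 50 UMIs in both sums together entered counts of genes past 2-fold. From each list, up to 4 genes in each direction with the largest ratios, at least 200 UMIs and 20 CPM, could be named, beside 10 proteases and partners named whatever their ratio. The members and the 7 lists were chosen with earlier results of these data known. Alternatives changed the filter, gates, doublets, depth, cell weight and scaling, and 3 of the 12 (cells low in collagen and decorin, the top cell left out, cells with Y-linked UMIs) were added after the data had been seen. For each Timp gene the 5 genes of most similar pattern were named, except 1 for Timp2 that is not reported here. The ratio computation was tested on simulated counts. Gene positions came from GENCODE (GRCm38) and promoters from RefSeq (GRCm38.p6). Software was Python 3.11.15, numpy 2.4.6, scipy 1.17.1, pandas 2.3.3, scanpy 1.11.5, matplotlib 3.10.9, R 4.3.3 and edgeR 4.0.16 (TMM factors only).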

Additional observations from a re-analysis of the deposited data

Results flagged for a closer look

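Timp2 differed in direction between mural cells and macrophages in all 3 comparisons, with intervals for counting error on either side of 1. At 1 week against control the ratio was 1.622 in mural cells and 0.4654 in macrophages. At 2 months against control it was 1.379 and 0.8192, and at 2 months against 1 week it was 0.8500 and 1.760 in the same order. With mural cells gated on Rgs5 the 1-week ratio was 0.836, and the ratio of 2 months to 1 week was 1.29 with that gate and 1.16 with the stricter cell filter, on the macrophage side, so both mural directions rested on the choice of cells. Timp3 at 2 months against control was at 1.510 in mural cells and 0.6310 in fibroblasts. None of these differences between classes was tested, since each group is 1 library.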

How the results depend on the processing

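No paired analysis was possible because each group is 1 library. Of 576 values under 12 alternatives for the 48 ratios, 309 lay within the counting interval of the reported value, and the rest outside it. Among ratios past 2-fold 1 changed sign: Timp4 in macrophages at 2 months against 1 week, a log2 ratio of 4.44 that was -0.03 without Scrublet doublets. Another 5 ratios, all under 2-fold, also changed sign under 1 to 3 alternatives: Timp2 in mural cells at 1 week (lowest log2 ratio -0.26) and between the operated libraries (highest 0.37), Timp2 in endothelium at 1 week (-0.001), Timp1 in macrophages between the operated libraries (0.95) and Timp3 in macrophages at 2 months (-0.64). Of 30 ratios of at least 2-fold, 24 were so under every alternative. The other 6 were Timp1 in endothelium at 2 months, in macrophages at both times and in mural cells between the operated libraries, Timp2 in macrophages at 1 week, and Timp4 in macrophages between the operated libraries. The number past 2-fold was 12 to 13 at 1 week (13 reported), 7 to 8 at 2 months (8) and 8 to 10 between the operated libraries (9). The cause of each shift below was not tested. For Timp1 in fibroblasts at 1 week (2.09) the log2 ratio was 2.22 with 2-UMI gates, 2.00 with other markers, 2.24 with equal cell weight, 2.17 thinned, 2.13 without the top cell, 2.04 without the 50 most abundant genes and 2.05 in cells with Y-linked UMIs. At 2 months (1.77) it was 1.84 with 2-UMI gates, 1.63 with equal weight, 1.59 thinned and 1.82 without the top cell. For Timp3 in fibroblasts at 1 week (-2.26) it was -2.34 with 2-UMI gates, -2.21 with other markers, -2.36 with equal weight, -2.33 thinned, -2.31 without the 50 genes and -2.19 in cells with Y-linked UMIs. For Timp4 in mural cells at 1 week (-6.16) it was -8.25 with the strict filter, -4.11 with other markers, -5.59 in cells low in collagen and decorin, -5.47 with equal weight and -5.46 thinned. For Timp2 in macrophages at 1 week (-1.10) it was -1.25 without Scrublet doublets, -1.14 with the strict filter, -1.26 with exclusive gates, -1.13 with 2-UMI gates, -1.18 with other markers, -1.27 in cells low in collagen and decorin, -1.23 with equal weight or thinned, -0.99 with TMM, -1.07 without the 50 genes and -1.06 in cells with Y-linked UMIs.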
